A study of Mus musculus with 12 samples.

Results

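Stefins and cystatins, the natural inhibitors of cysteine proteases, were followed through 7 genes, Stfa1, Stfa2, Stfa2l1, Stfa3, Cstb, Cst3 and Cst6. The genes were listed with earlier results of these data known, and every probe set annotated to any of them was taken, so the counts below describe them and support nothing about the family at large. Of these genes, 5 are among the 18193 that have a probe set of their own on the array, and the family had 7 of its 45101 probe sets. All 7 passed the filter on low values, for which a probe set had to read 16 or more on 3 or more of the 12 arrays. Stfa3 (1419709_at), Stfa2l1 (1442339_at), Cst3 (1426195_a_at) and Cst6 (1427910_at) had 1 probe set each, and Cstb had 2 (1422506_a_at and 1422507_at). Stfa1 was represented by 1 probe set (1435761_at), which the annotation assigns jointly to Stfa1 and its neighbour Cstdc5. No probe set was annotated to Stfa2. Transcripts of the other stefin A genes may bind to any of the stefin A probe sets, so the gene named for a value is uncertain within the cluster. In the mouse annotation used for names, 12 protein-coding genes lie in a row on chromosome 16 from Csta1 to Stfa3, and 4 of them are among the genes described here. Cstb lies on chromosome 10, Cst3 on chromosome 2 and Cst6 on chromosome 19.

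Cystatins are tight-binding, reversible inhibitors of cysteine proteases of the papain family, and their best known targets are the lysosomal cathepsins. Stefins are small cystatins that stay inside the cell. In the mouse, stefin A is encoded by a cluster of near-identical genes on chromosome 16, which are transcribed in granulocytes and in epidermis, while the human genome has the counterpart CSTA, a protein of the cornified envelope. Stefin B (Cstb) is made in most cell types. Cystatin C (Cst3) and cystatin M/E (Cst6) are secreted. Cystatin C is made by most nucleated cells, and cystatin M/E by the upper epidermis, where it restrains cathepsin L and legumain.

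The arrays (Affymetrix Mouse430_2, 1 per ear) measured whole ears of 6 female mice aged 8 to 10 weeks, 3 of the wild-type C57BL/6J line and 3 lacking both cannabinoid receptors (Cnr1-/-/Cnr2-/-). All were sensitized on the shaved abdomen with 50 µl of 0.2% dinitrofluorobenzene (DNFB), a contact allergen, in acetone and olive oil. On day 5 a 0.3% solution of DNFB (10 µl) was put on the right ear, and the left ear of the same mouse was left untreated as its control, so that the control ears also come from sensitized animals. The ears were taken 48 h after the challenge, which gave 4 groups of 3 arrays: wild-type control, wild-type DNFB, knockout control and knockout DNFB. The knockout is of the whole animal, and the ear samples mix epidermis, dermis, cartilage, muscle and infiltrating cells. In such bulk tissue, fewer cells of a type and less RNA per cell cannot be told apart.

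Keratins of the epidermis (Krt5, Krt14, Krt10), muscle actin (Acta1), a fibroblast collagen (Col1a2) and the cartilage proteoglycan Acan were detected on every array, as the ear label requires, while the cartilage gene Matn1 stayed at 6.63 or less. The probe sets of the deleted receptor genes did not fall in the ears labelled knockout. Cnr2 lay at 7.84 to 18.1 in wild-type and 9.85 to 21.3 in knockout control ears, and at 15.9 to 28.1 in wild-type and 28.6 to 39.4 in knockout DNFB ears, where every ear labelled knockout was above every wild-type one. The Cnr1 probe set that passed the filter lay at 6.04 to 17.0 in wild-type and 8.54 to 13.7 in knockout control ears, and at 8.75 to 16.3 and 4.88 to 19.9 in DNFB ears. Where these probe sets lie relative to the deleted parts is not given in the sources used here, so they check nothing and the genotypes are those of the labels. Per array, 57.7% to 61.5% of probe sets reached 16. By their hybridization times in the instrument records, the arrays were grouped into 3 sets of 4 that lie close in time. These sets are called washing runs here, a name inferred and not given by those times, and they cut across the groups. All 3 wild-type control ears shared run 1 with the first wild-type DNFB ear. Wild-type DNFB ears 2 and 3 shared run 2 with the first 2 knockout control ears. The last knockout control ear shared run 3 with all knockout DNFB ears. Knockout control ear 3 stood apart from the other control ears for Stfa1/Cstdc5 and Stfa3, as described with its values below, and the responses and genotype differences that rest on it are given with and without it where that can be done.

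The stefin A probe sets moved together, so the starts of their genes are shown side by side. RefSeq windows of 250 bases before to 50 bases after the start of transcription, on GRCm38.p6, were found for 5 of the 7 genes, which leaves Cstb and Cst6 named only. The windows of Stfa1 (chr16:36276898-36277197, plus strand), Stfa2l1 (chr16:36156561-36156860, plus strand) and Stfa3 (chr16:36455343-36455642, minus strand) are printed 5′ to 3′ to show how alike they are, and that of Cst3 (chr2:148875463-148875762, minus strand) to show a gene of the family outside the cluster. Capitals mark 2 runs of letters shared by the stefin A windows.
Stfa1: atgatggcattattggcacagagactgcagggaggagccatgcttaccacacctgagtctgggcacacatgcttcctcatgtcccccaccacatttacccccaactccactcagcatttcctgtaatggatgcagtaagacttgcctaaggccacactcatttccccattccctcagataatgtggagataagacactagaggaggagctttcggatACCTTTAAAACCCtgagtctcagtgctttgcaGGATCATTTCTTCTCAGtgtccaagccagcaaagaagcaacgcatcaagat
Stfa2l1: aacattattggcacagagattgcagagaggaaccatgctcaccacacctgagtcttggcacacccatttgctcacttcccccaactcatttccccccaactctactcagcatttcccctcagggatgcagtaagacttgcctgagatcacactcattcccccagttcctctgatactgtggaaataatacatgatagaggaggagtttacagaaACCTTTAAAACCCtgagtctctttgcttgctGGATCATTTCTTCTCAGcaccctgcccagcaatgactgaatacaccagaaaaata
Stfa3: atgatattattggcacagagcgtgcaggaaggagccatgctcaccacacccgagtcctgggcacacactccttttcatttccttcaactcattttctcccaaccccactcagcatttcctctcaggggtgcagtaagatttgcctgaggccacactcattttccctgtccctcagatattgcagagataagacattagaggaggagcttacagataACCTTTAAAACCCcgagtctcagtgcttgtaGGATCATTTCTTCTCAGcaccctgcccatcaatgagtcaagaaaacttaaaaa
Cst3: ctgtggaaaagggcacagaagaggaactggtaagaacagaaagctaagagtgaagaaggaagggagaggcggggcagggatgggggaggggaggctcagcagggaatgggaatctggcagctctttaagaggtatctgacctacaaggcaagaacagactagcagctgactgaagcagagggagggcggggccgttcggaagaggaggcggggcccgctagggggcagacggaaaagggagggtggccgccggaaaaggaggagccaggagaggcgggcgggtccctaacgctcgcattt

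In global alignments that allow gaps, the Stfa1 window matched that of Stfa2l1 at 80.3% of 300 bases and that of Stfa3 at 81.7%. The Stfa2 window, whose gene has no probe set, matched that of Stfa2l1 at 91.7%, and the window of Cstdc5, which shares a probe set with Stfa1, matched that of Stfa1 at 89.7%. The windows of the stefin A genes listed here matched that of Csta1, at the other end of the cluster, at 55.7% to 58.7%. They matched that of Cst3 at 45.3% to 48.0%. Gaps raise such matches, so the lower figures alone show no likeness. The first shared run, ACCTTTAAAACCC, began between -36 and -32 from the start in the windows of Stfa1, Stfa2, Stfa2l1 and Stfa3. On either strand it was found in 9 of 32851 windows (0.0274%), all from the cluster. The second, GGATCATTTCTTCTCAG, began between -5 and -1 in the same 4 windows and was found in 6 windows (0.0183%), those of Csta3, Cstdc5, Stfa1, Stfa2, Stfa2l1 and Stfa3. The 2 runs were chosen because these windows share them, so their rarity elsewhere is a description. The letters TATAAA, the core of a TATA box, were in no stefin A window listed here nor in that of Cst3, against 13.6% of all windows. The AP-1 letters TGANTCA were found once, in the Stfa3 window (7.81% of all windows), and the GC box letters GGGCGG, among the 5 windows of the listed genes, in that of Cst3 (35.7%). A match, or none, in these letters says nothing of what binds there.

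**Figure D1:**
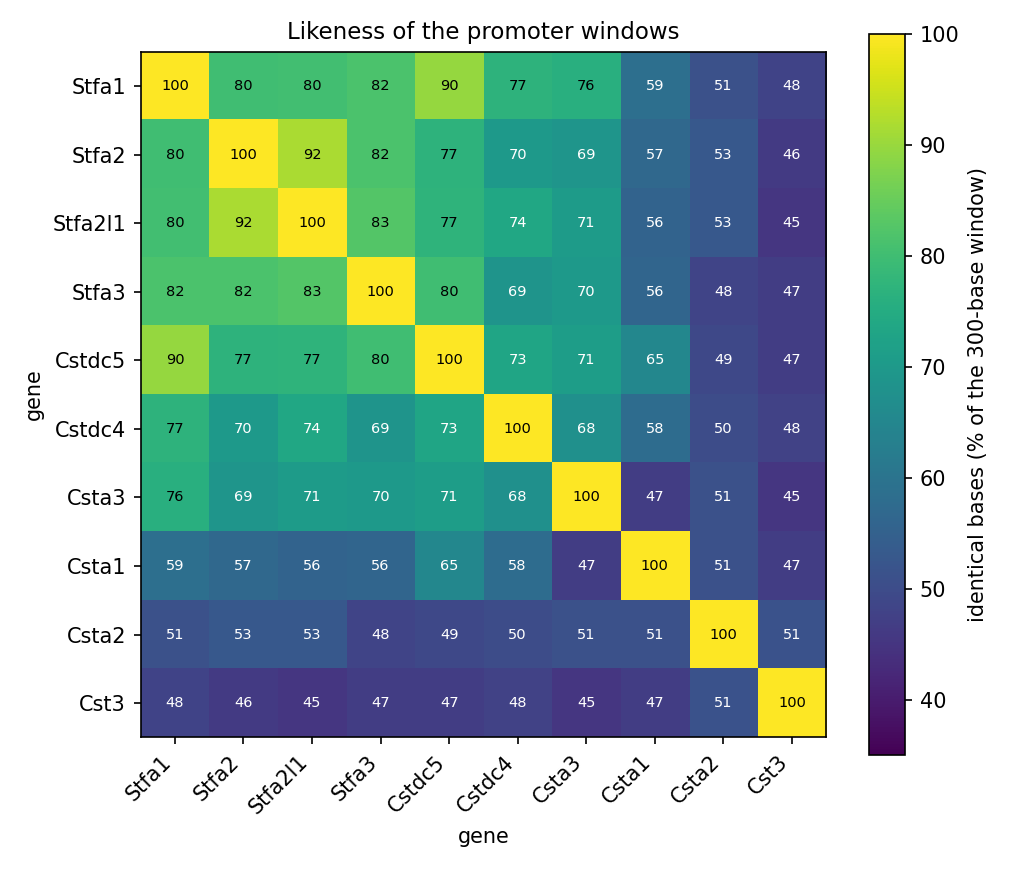
Percent of identical bases between the 300-base promoter windows of genes of the stefin A cluster and Cst3, from global alignments that allow gaps. Each gene is on both axes, with the rounded percentage in each cell. The windows of Stfa1, Stfa2, Stfa2l1 and Stfa3 match each other at 80.0% to 91.7%, and match that of Cst3 at 45.3% to 48.0%.

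The first comparison set the DNFB-painted against the untreated ears of each genotype. In wild-type ears 5 of the 7 probe sets rose and 1 fell, against 15.2% of the 29460 probe sets tested that rose and 22.8% that fell, and the median log2 change was 1.01 beside -0.14 over all. In knockout ears again 5 rose and 1 fell, against 17.0% and 22.0%, with a median of 0.80 beside -0.09. In both genotypes the 5 were the 3 stefin A probe sets, which may bind each other's transcripts, and both Cstb probe sets. They may thus hold fewer than 5 separate signals, and each median is the value of Cstb 1422507_at. The values of DNFB and control ears did not overlap for 7 of 7 probe sets in the wild type, against 54.4% of all probe sets, and for 6 of 7 in the knockout, against 49.0%. Stfa2l1 is in each of these counts of rises and of ranges apart. It passed the filter through its DNFB ears alone, so it lends them no support. The 3 stefin A probe sets each rose at least 76.6-fold, both Cstb probe sets rose by up to 2.01-fold, Cst3 fell, and Cst6 did not pass the threshold. All adjusted p-values below come from limma with the Benjamini-Hochberg adjustment over the 29460 probe sets, and changes are log2 differences of group means ± SE of the model, with 3 ears per group.

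The Stfa1/Cstdc5 probe set read 43.4, 38.0 and 28.1 in wild-type control ears and 7423, 8547 and 7402 in wild-type DNFB ears. In the knockout it read 16.3, 27.1 and 120.5 in control ears and 7505, 8800 and 8814 in DNFB ears. Every DNFB ear thus lay far above every control ear of both genotypes, and the knockout control ears were spread widely, with ear 3 the highest. The change was 7.76 ± 0.56 in wild-type ears (216-fold, adjusted p = 8.19e-06) and 7.79 ± 0.56 in knockout ears (222-fold, adjusted p = 6.83e-06). The readings of the DNFB ears lie near the top of the scale, since the brightest probe set of those arrays read 8039 to 9661, and on the array of knockout DNFB ear 3 it was this one. Values so near the array's highest may be limited by the scanner or the probes, which was not tested.

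The Stfa2l1 probe set read 4.94, 7.35 and 4.84 in wild-type control ears and 840.6, 1829 and 1197 in wild-type DNFB ears. In the knockout it read 4.64, 2.61 and 15.4 in control ears and 1080, 1410 and 1509 in DNFB ears. All 6 control ears thus lay below the intensity of 16, where no level is claimed, so this probe set passed the filter through its DNFB ears alone. Against 16, it was at least 76.6-fold higher in wild-type and at least 82.5-fold higher in knockout DNFB ears. The adjusted p-values from limma (6.68e-06 and 5.36e-06) belong to fitted changes that draw on control readings below 16, not to these folds. Entry through the DNFB ears alone favours a rise, so the call is no further support.

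The Stfa3 probe set read 20.7, 13.5 and 20.7 in wild-type control ears and 2453, 3981 and 2823 in wild-type DNFB ears. In the knockout it read 23.6, 22.4 and 79.1 in control ears and 3051, 2720 and 3141 in DNFB ears. Again no DNFB ear came near a control ear, while the knockout control ears all lay above the wild-type ones. The change was 7.39 ± 0.42 in wild-type ears (168-fold, adjusted p = 2.37e-06) and 6.42 ± 0.42 in knockout ears (85.4-fold, adjusted p = 4.22e-06).

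**Figure D2:**
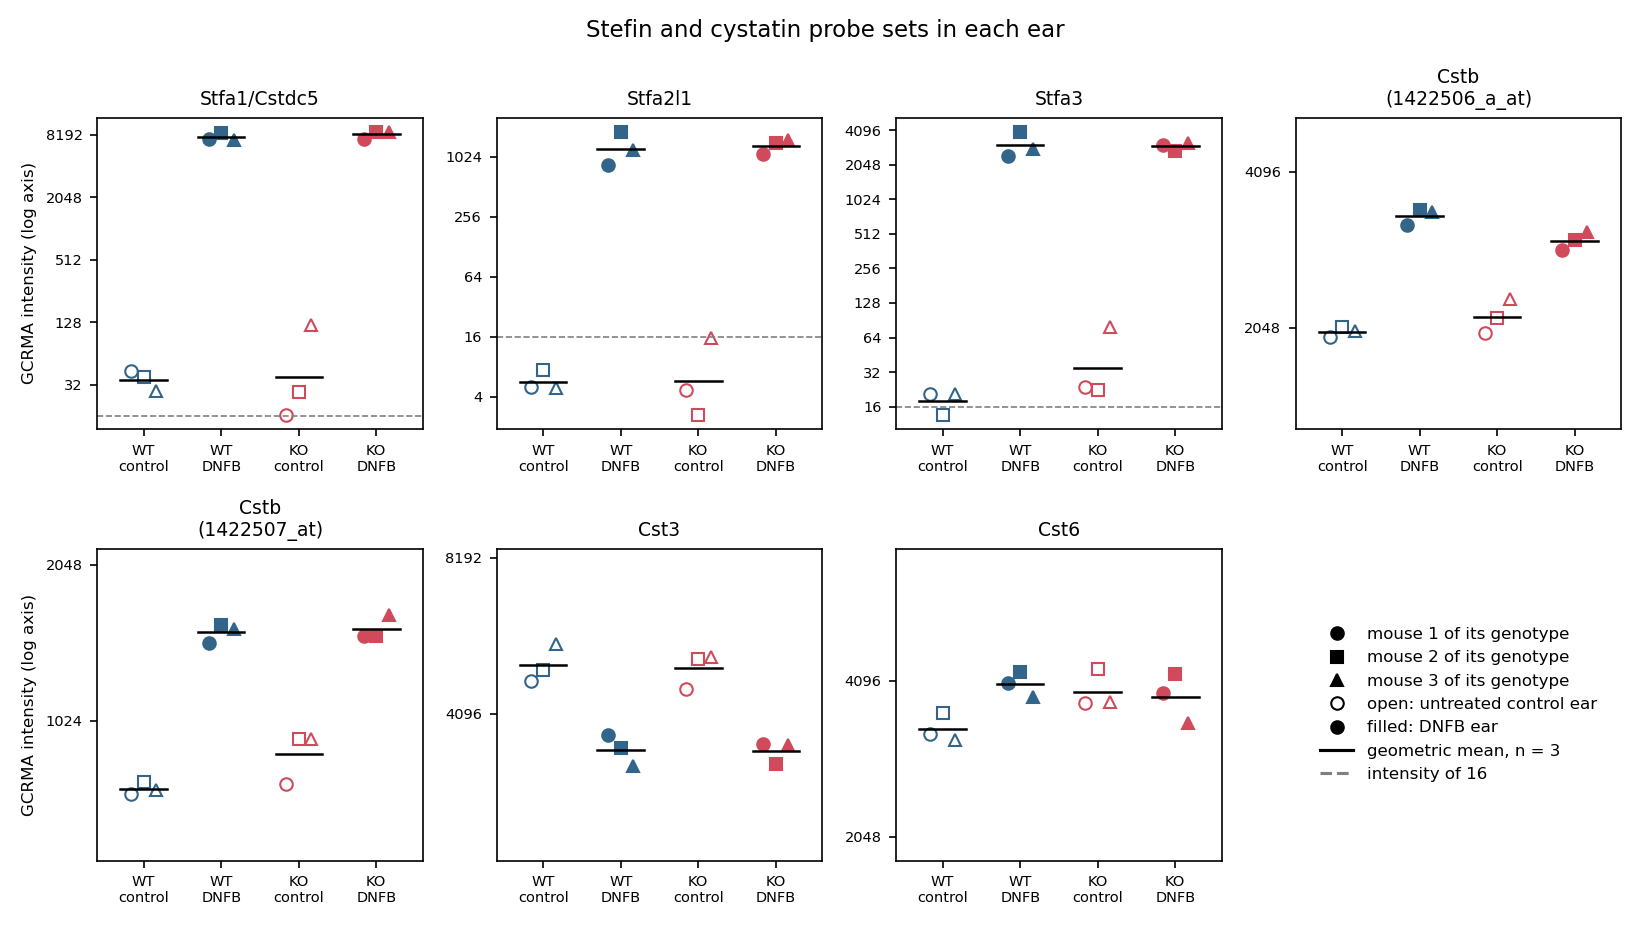
Intensity of each of the 7 probe sets in each of the 12 ears, on log2 axes, by group (wild-type control, wild-type DNFB, knockout control, knockout DNFB), with 1 point per ear and a bar at the geometric mean of each group. The 3 stefin A probe sets lie at 120.5 or less in control ears and at 840.6 or more in DNFB ears, whereas Cst3 and Cst6 stay between 3152 and 5596 in all ears.

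Knockout control ear 3 was the highest of the 6 control ears for Stfa1/Cstdc5 and Stfa3. Its Stfa2l1 reading of 15.4 was below 16, as in the other 5 control ears, so no order is read from it. Of all 13383 genes tested, 15.8% were highest in this ear. It lay above the mean of the 6 control ears by 1.71 on the log2 scale for Stfa1/Cstdc5 and by 1.66 for Stfa3. Genes that mark neutrophils and stressed keratinocytes were partly raised in the same ear. S100a8, a calcium-binding protein abundant in neutrophils and also made by inflamed epidermis, read 454.2 there and 26.3 to 153.2 in the other control ears, and its partner S100a9 read 222.6 against 28.4 to 87.9. The stress keratin Krt16 read 121.3 there against 26.6 to 65.2. The neutrophil receptor gene Csf3r, in contrast, read 8.33 there, below 16, and 9.05 to 32.5 in the other control ears, and Mmp9 lay 0.04 above the mean. Of the marker lists, 3 of 9 neutrophil genes, 2 of 4 stressed keratinocyte genes and 4 of 7 cornified layer genes were highest in this ear. The 7 tested neutrophil genes other than S100a8 and S100a9 summed to 103.0 there and to 70.8 to 129.4 in the other control ears. The part of these cells in the stefin values was not tested.

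Without that ear, the knockout response was 8.63 ± 0.24 for Stfa1/Cstdc5 (adjusted p = 8.19e-07) and 7.01 ± 0.24 for Stfa3 (adjusted p = 1.29e-06). The fitted Stfa2l1 change, which draws on control readings below 16, also passed without that ear (adjusted p = 3.43e-06). Without knockout control ear 1, which was the lowest for Stfa1/Cstdc5, the Stfa1/Cstdc5 change was 7.19. Per mouse, the difference between its ears was 6.19 for Stfa1/Cstdc5 in knockout mouse 3 and 8.84 and 8.34 in knockout mice 1 and 2. The wild-type mice gave 7.42, 7.81 and 8.04. For Stfa3 knockout mouse 3 gave 5.31, against 7.01 and 6.93 in the other knockout mice and 6.89, 8.21 and 7.09 in the wild-type mice. Mouse 3 thus had the smallest difference of the 3 knockout mice for both, through its control ear.

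With the washing run as a block, the knockout response rests on that single control ear and came to 6.11 for Stfa1/Cstdc5 and 5.23 for Stfa3. The wild-type response then rests on DNFB ear 1 against the 3 control ears and came to 7.69 and 7.09. These 4 values passed the threshold with the block, as did Stfa2l1 in both genotypes, whose fitted changes are no levels because its control ears read below 16.

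**Figure D3:**
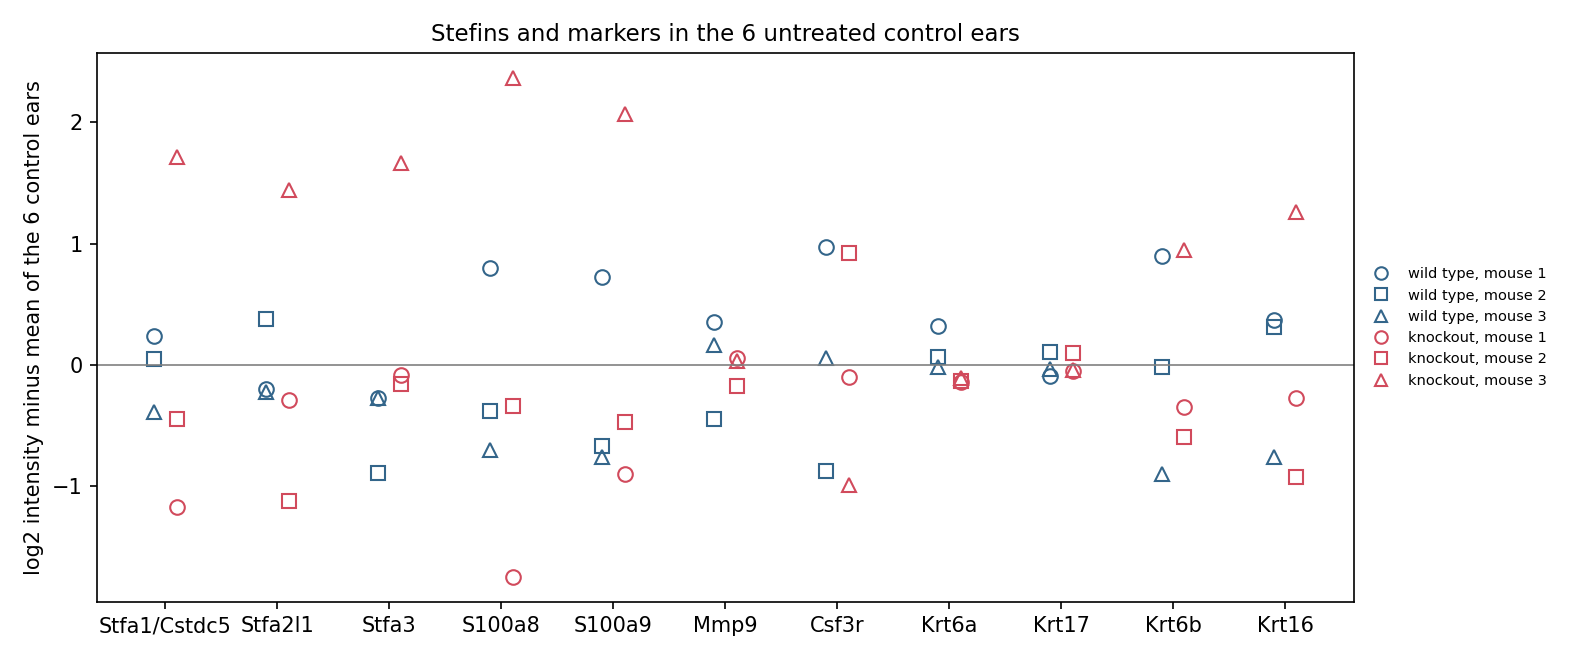
The stefin A probe sets and the most abundant tested neutrophil (S100a8, S100a9, Mmp9, Csf3r) and stressed keratinocyte (Krt6a, Krt17, Krt6b, Krt16) genes in the 6 untreated control ears, as log2 intensity minus the mean of the 6 ears, with 1 symbol per mouse and colour for genotype. Knockout mouse 3 lies highest for Stfa1/Cstdc5, Stfa3, S100a8, S100a9, Krt6b and Krt16, while all Stfa2l1 readings and that of Csf3r in this mouse are below 16, where no order is read.

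Markers of infiltrating and stressed cells moved with the stefin A probe sets across the treatment. Of 15 neutrophil genes listed, 9 were tested, of which 7 rose in wild-type and 6 in knockout DNFB ears, against 19.0% and 21.2% of all 13383 genes. The summed intensity of these 9 genes was 171.7 to 367.3 in wild-type control and 9306 to 12760 in wild-type DNFB ears, and 161.5 to 779.8 and 7630 to 12240 in the knockout. In DNFB ears 92.7% to 96.0% of that sum came from S100a8 and S100a9, which inflamed epidermis also makes. The other 7 genes, of which 5 rose in wild-type and 4 in knockout ears, summed to 70.8 to 126.2 in wild-type control and 511.8 to 689.3 in wild-type DNFB ears, and to 103.0 to 129.4 and 488.9 to 877.2 in the knockout. Among these 7, Cxcr2, Fpr2 and Mmp8 read below 16 in every control ear and passed the filter through their DNFB ears alone. The counts of neutrophil genes that rose are thus partly set by the filter. Ngp and Mpo passed the threshold in neither genotype. The 10 monocyte and macrophage genes rose in both genotypes, as did the 4 stressed keratinocyte genes, whose median change was 5.36 in wild-type and 5.39 in knockout ears. The summed intensity of those 4 genes was 825.6 to 971.3 in wild-type control and 20680 to 23390 in wild-type DNFB ears. Of 7 dendritic and Langerhans cell genes, 2 rose in each genotype, and 1 fell in wild-type and 2 in knockout ears. Of 5 mast cell genes, 0 rose and 1 fell in wild-type ears, and 1 rose and 0 fell in knockout ears. The neutrophil granule genes Ltf, Camp and Elane stayed too low to be tested, and Ly6g has no probe set of its own in the annotation used. How much of the stefin A signal came from which cells was not tested.

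Cstb encodes stefin B, an inhibitor of several cathepsins whose loss in humans causes a progressive myoclonus epilepsy. Its probe set 1422506_a_at read 1969, 2050 and 2019 in wild-type control and 3232, 3452 and 3419 in wild-type DNFB ears, and in the knockout 1997, 2140 and 2327 in control and 2897, 3023 and 3134 in DNFB ears. It rose by 0.74 ± 0.09 in the wild type (1.67-fold, adjusted p = 0.000126) and by 0.49 ± 0.09 in the knockout (1.40-fold, adjusted p = 0.00141). All 6 DNFB ears lay above all 6 control ears, and the wild-type DNFB ears above the knockout ones. With the washing run as a block, the knockout change was 0.37 and no longer passed (adjusted p = 0.0645).

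The probe set 1422507_at of Cstb read 738.6, 778.5 and 754.1 in wild-type control and 1448, 1570 and 1542 in wild-type DNFB ears. In the knockout it read 772.5, 942.5 and 945.6 in control and 1491, 1495 and 1639 in DNFB ears. DNFB and control ears did not overlap, while the DNFB ears of both genotypes did. The rise was 1.01 ± 0.10 in the wild type (2.01-fold, adjusted p = 5.26e-05) and 0.80 ± 0.10 in the knockout (1.74-fold, adjusted p = 0.000173). Both probe sets thus gave a rise in each genotype, and every one of the 6 mice showed it, with differences between its ears of 0.43 to 0.76 for 1422506_a_at and 0.67 to 1.03 for 1422507_at.

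Cst3, the gene of cystatin C, was the only probe set of the 7 that fell. It read 4748, 4974 and 5596 in wild-type control and 3726, 3515 and 3254 in wild-type DNFB ears, and 4583, 5235 and 5275 in knockout control and 3579, 3281 and 3571 in knockout DNFB ears. The ranges of DNFB and control ears were apart in both genotypes, and those of the genotypes overlapped in both kinds of ear. It fell by 0.54 on the log2 scale (SE 0.10, adjusted p = 0.0023) in the wild type and by 0.53 (SE 0.10, adjusted p = 0.00242) in the knockout. With the washing run as a block the wild-type fall was 0.45 and did not pass (adjusted p = 0.0738). Genes of other ear tissues fell as well: 2 of 3 tested cartilage genes, 3 of 4 muscle genes and 3 of 4 fibroblast genes in each genotype, against 24.0% of all genes in the wild type and 24.6% in the knockout. The summed intensity of the 4 fibroblast genes was 7260 to 8535 in wild-type control and 4986 to 5616 in wild-type DNFB ears. The part of tissue makeup in the fall of Cst3 was not tested.

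Cst6 encodes cystatin M/E, whose loss in mice gives a lethal ichthyosis-like skin. It read 3229, 3557 and 3152 in wild-type control and 4056, 4264 and 3820 in wild-type DNFB ears, and 3719, 4312 and 3723 in knockout control and 3886, 4221 and 3398 in knockout DNFB ears. In the wild type the DNFB ears all lay above the control ears, and in the knockout the groups overlapped. The change was 0.29 ± 0.11 in the wild type (adjusted p = 0.0618) and -0.03 ± 0.11 in the knockout (adjusted p = 0.838). The difference between these changes, -0.32 ± 0.16, did not pass either (adjusted p = 0.81, with a 95% interval of -0.67 to 0.02). The wild-type change passed at a log2 change of 0.43 once each array was centred on its median, and at 0.29 with a stricter filter or with robust variance moderation. It also passed once knockout DNFB ear 3 was left out of the shared estimate of spread (adjusted p = 0.0471).

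**Figure D4:**
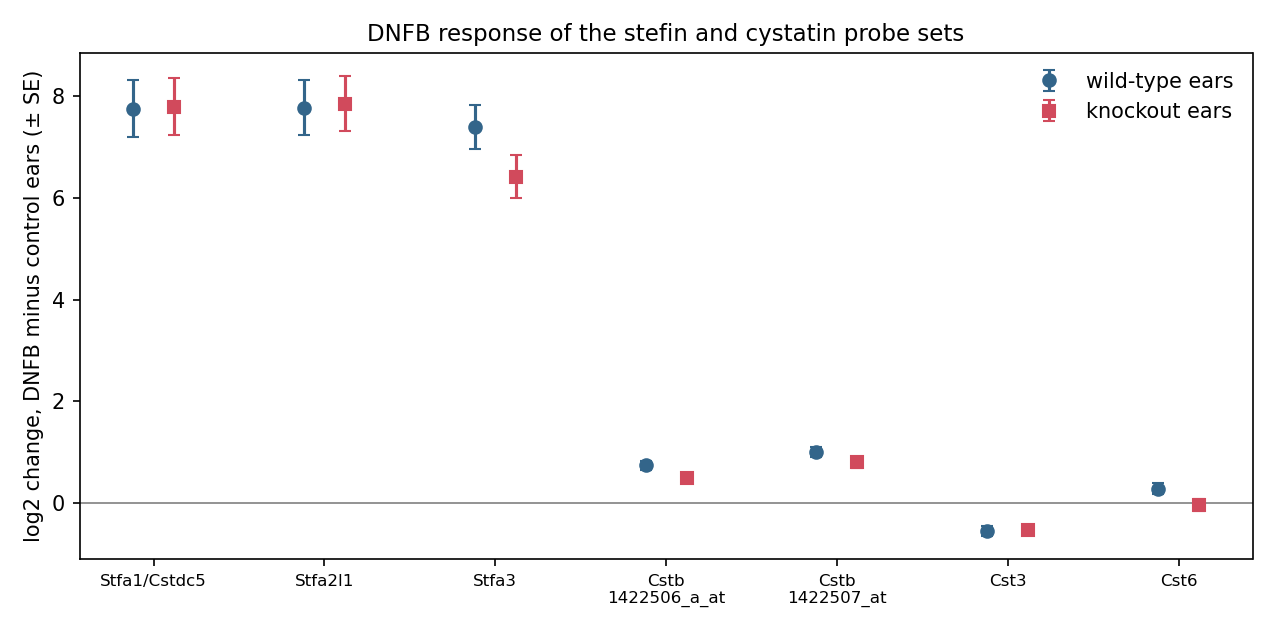
Log2 change from control to DNFB ears for each of the 7 probe sets in wild-type and knockout ears. There is 1 point per genotype, with error bars for the SE of the model (3 ears per group). The stefin A points lie at 6.42 to 7.85, where those of Stfa2l1 are fitted values from control ears below 16. The Cstb points lie at 0.49 to 1.01, and Cst3 lies below 0 in both genotypes.

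The second question was whether the lack of both cannabinoid receptors changed these genes. In limma's comparison of knockout with wild-type DNFB ears, 0 of the 7 probe sets passed, against 0.119% of all probe sets tested, and 0 had an unadjusted p under 0.05. The log2 difference was 0.10 for Stfa1/Cstdc5 (95% interval -1.15 to 1.36, adjusted p = 0.972) and 0.11 for Stfa2l1 (-1.10 to 1.31, adjusted p = 0.969). It was -0.03 for Stfa3 (-0.97 to 0.92, adjusted p = 0.992). No washing run held DNFB ears of both genotypes, so a difference with the run as a block is carried through the control ears, among them the high knockout control ear 3, and cannot be had without that ear. It was -2.45 for Stfa1/Cstdc5 and -1.96 for Stfa3 and did not pass either (adjusted p = 0.246 and 0.325). Each of these log2 intervals reaches 0.92 or more in either direction, so they do not settle whether the genotypes had like stefin A levels. Their width comes from a spread shared by all 4 groups, which includes the high knockout control ear 3. Among DNFB ears alone, the SD of the log2 values in wild type and knockout was 0.119 and 0.133 for Stfa1/Cstdc5. Its DNFB readings lay near the highest of their arrays. A limit of the scanner or the probes may thus narrow this spread and its difference of 0.10, which was not tested. The SD was 0.561 and 0.255 for Stfa2l1, and 0.359 and 0.11 for Stfa3. Among knockout control ears it was 1.50 for Stfa1/Cstdc5 and 1.03 for Stfa3. For Cst3 (-0.01, interval -0.24 to 0.22), Cst6 (-0.08, interval -0.33 to 0.16) and Cstb by 1422507_at (0.02, interval -0.20 to 0.24) the intervals were narrower. The Cstb probe set 1422506_a_at was lower in the knockout by its values, which did not overlap between the genotypes (-0.16, interval -0.35 to 0.03, adjusted p = 0.602), while 15.1% of all probe sets also did not overlap.

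Among untreated ears, limma called 0 of the 7 probe sets between genotypes, against 0.149% of all probe sets, and 1, Stfa3, had an unadjusted p under 0.05 (0.0485). Its difference was 0.95 ± 0.42 (95% interval 0.01 to 1.90, adjusted p = 0.42), with all 3 knockout control ears above all 3 wild-type ones. Without knockout control ear 3 it was 0.36. Cst6 also did not overlap (0.24, adjusted p = 0.431), so that 2 of 7 did not, beside 18.3% of all probe sets. The remaining 5 differences ranged from -0.02 for Cst3 to 0.22 for Cstb by 1422507_at. Stfa1/Cstdc5 differed by 0.07 with all ears and by -0.77 without knockout control ear 3, and did not pass either way.

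For the difference between the responses, limma called 0 of 7 probe sets, against 0.00339% of all probe sets, with 0 at an unadjusted p under 0.05. Stfa3 had the value farthest from 0 of the 7, -0.98 ± 0.60 (95% interval -2.31 to 0.36, adjusted p = 0.858), which came to -0.38 without knockout control ear 3 and to -1.87 with the washing run as a block, which rests on that ear (adjusted p = 0.386). For Stfa1/Cstdc5 the value was 0.04 (interval -1.74 to 1.81) and 0.88 without that ear (adjusted p = 0.861). Cstb by 1422506_a_at gave -0.25 ± 0.12 (adjusted p = 0.81) and Cst3 0.01 (adjusted p = 0.994).

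Across the 4 groups, ordered by their geometric means, the stefin A probe sets and 1422507_at of Cstb had both control groups below both DNFB groups, and neighbours of the same kind of ear overlapped except the Stfa3 control groups. For 1422506_a_at of Cstb the order ran from wild-type control (2012) and knockout control (2150), which overlapped, to knockout DNFB (3016) and then wild-type DNFB (3366), which did not overlap. For Cst3 the DNFB groups (3474 in the knockout and 3493 in the wild type) overlapped each other, below the control groups (5021 in the knockout and 5094 in the wild type), which also did. For Cst6 all neighbours in the order overlapped.

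Over the 12 arrays, the log2 values of the 3 stefin A probe sets correlated with each other at Pearson's r of 0.991 to 0.994, and after the group means were taken out at 0.772 to 0.839. Because all points share the same arrays and the treatment splits them into 2 clusters, figures without that step mostly restate the split. This holds here and for the genes that follow, whose second figure is r after the group means were taken out. For Stfa1/Cstdc5 and Stfa3 the widest group was knockout control (SD 1.50 and 1.03), through its high ear 3. Their second figures thus lean on that ear, which was also the highest control ear for Krt16 and Krt6b. The Stfa2l1 figures draw on control readings below 16, where no level is claimed. The genes most like Stfa1/Cstdc5 were the stress keratins Krt16 (0.995, then 0.827) and Krt6b (0.994, then 0.764), followed by Stfa2l1 (0.994, then 0.772). Krt16 was also the most like Stfa2l1 (0.997, then 0.873), followed by the water and glycerol channel gene Aqp3 (0.995, then 0.897) and the connexin gene Gjb6 (0.994, then 0.825). For Stfa3 they were Galnt6, a glycosyltransferase (0.995, then 0.817), Klk13, a kallikrein-related protease (0.995, then 0.844), and the connexin gene Gjb2 (0.994, then 0.69). Krt16 itself read 29.9 to 65.2 in wild-type control and 4256 to 5330 in wild-type DNFB ears.

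For Cstb, by 1422506_a_at, the most similar genes were Chil1, a chitinase-like protein (0.997, then 0.945), Rcn1, a calcium-binding protein of the endoplasmic reticulum (0.996, then 0.971), and Tmem229b (0.993, then 0.972). For Cst3 they were S100b (0.985, then 0.884), a calcium-binding protein of chondrocytes and glia, the glypican gene Gpc6 (0.982, then 0.816), and Chad (0.982, then 0.789), which encodes the cartilage protein chondroadherin. Cst6 had no gene as close, and led with Cbr3, a carbonyl reductase (0.890, then 0.857), Zdhhc5, a palmitoyltransferase (0.873, then 0.821), and Dcaf12 (0.863, then 0.706). The Cst6 values correlated with those of the other 6 probe sets at -0.44 to 0.53.

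The enzymes that cystatins inhibit were counted beside them. Of 11 cysteine cathepsins and legumain, all tested, 8 rose and 2 fell in the DNFB ears of each genotype. Over all 13383 genes, 19.0% rose and 24.0% fell in the wild type, and 21.2% and 24.6% in the knockout. The median log2 change of the 11 genes was 0.70 in wild-type and 0.77 in knockout ears, beside -0.08 and -0.06 over all genes. Between genotypes limma called 0 of the 11 in DNFB ears, against 0.0672% of all genes, and 0 in control ears, against 0.149%, while 2 and 0 had an unadjusted p under 0.05.

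Cathepsin C (Ctsc), which activates the serine proteases of granulocytes, rose most, by 1.69 ± 0.10 in wild-type and 1.84 ± 0.10 in knockout ears (adjusted p = 3.21e-06 and 1.71e-06). It read 724.0 to 782.2 in wild-type control and 2156 to 2688 in wild-type DNFB ears. Cathepsin S (Ctss), the enzyme of antigen-presenting cells that trims the invariant chain, rose by 1.49 and 1.53, and Ctsw, of cytotoxic lymphocytes, by 1.50 and 1.40. Ctsz rose by 1.29 and 1.19, Ctsb by 0.70 and 0.69, and Ctsh by 0.68 and 0.77, each in wild-type and knockout ears in turn. The DNFB and control ears of a genotype did not overlap for any of these 6 genes. Among all probe sets, 54.4% in the wild type and 49.0% in the knockout did not overlap either.

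Ctsf read 201.6 to 212.0 in wild-type control and 42.8 to 69.0 in wild-type DNFB ears, a change of -1.90 ± 0.24 (adjusted p = 0.00022), and changed by -2.41 ± 0.24 in the knockout (adjusted p = 4.5e-05). Cathepsin K (Ctsk), the collagen-degrading enzyme of osteoclasts and fibroblasts, changed by -1.06 ± 0.10 and -0.82 ± 0.10 (adjusted p = 4.38e-05 and 0.000167). Both thus fell, with every DNFB ear below every control ear of the same genotype. Ranges apart, in either direction, were seen for 54.4% of all probe sets in the wild type and 49.0% in the knockout. Ctso did not pass (-0.05 and -0.08, adjusted p = 0.72 and 0.559).

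**Figure D5:**
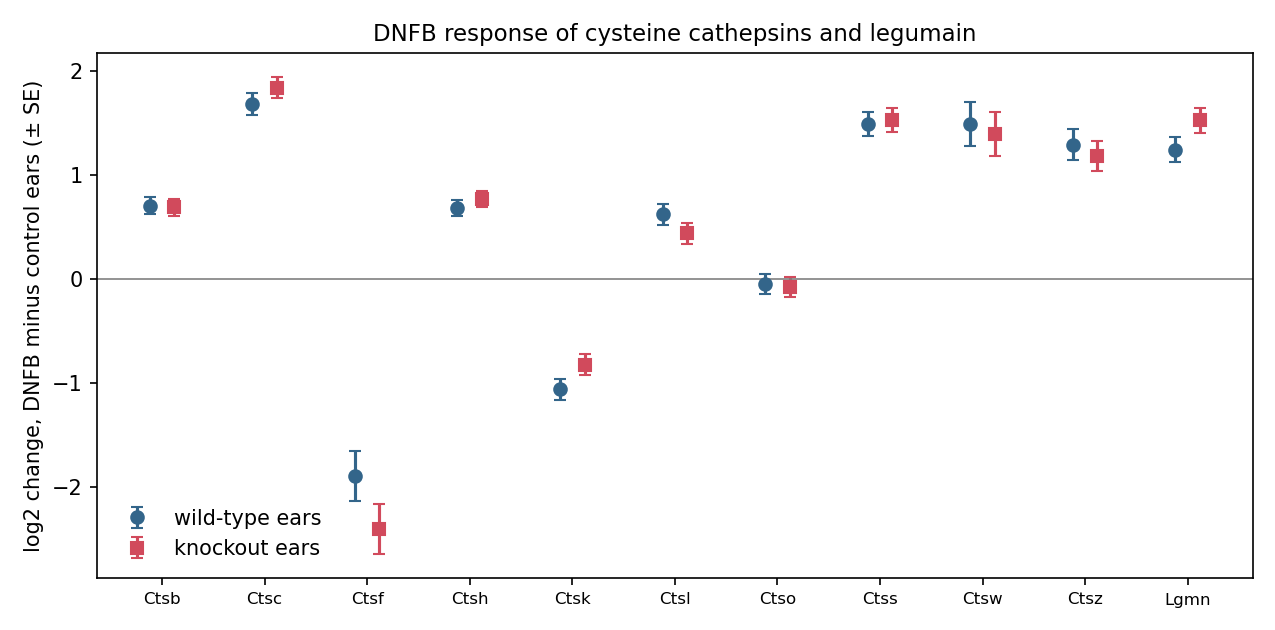
Log2 change from control to DNFB ears for the 11 cysteine cathepsin and legumain genes in wild-type and knockout ears. There is 1 point per genotype, with error bars for the SE of the model (3 ears per group). Ctsf and Ctsk lie below 0, Ctso near 0, and the other 8 genes between 0.44 and 1.84.

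The targets of cystatin M/E rose in both genotypes. Cst6 did not pass, though its wild-type change of 0.29 lay near the threshold (adjusted p = 0.0618) and passed in 4 alternative settings. Whether inhibitor and targets changed in the same cells was not tested. Cathepsin L (Ctsl) read 2276 to 2883 in wild-type control and 3815 to 3995 in wild-type DNFB ears, a change of 0.62 ± 0.10 (adjusted p = 0.000978), and changed by 0.44 ± 0.10 in the knockout (adjusted p = 0.0063). Legumain (Lgmn) rose by 1.25 ± 0.12 in wild-type ears, from 339.7 to 380.1 up to 802.6 to 876.0, and by 1.53 ± 0.12 in knockout ears (adjusted p = 4.08e-05 and 1.01e-05). The transglutaminase genes Tgm1 (0.30 and -0.27) and Tgm3 (0.71 and 0.56) did not pass in either genotype. The wild-type Tgm3 change lay near the threshold (adjusted p = 0.0557). Enzyme activity was not measured.

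Of the 4 cathepsins of other protease classes, 1 rose in wild-type ears (Ctsd, 0.43), and in knockout ears 1 rose (Ctse, 1.12) and 1 fell (Ctsg, -0.78), shares near the 19.0% to 24.6% of all genes that rose or fell. Of 26 other genes of the cystatin superfamily, 14 had a probe set of their own and 5 were tested, of which 2 rose and 1 fell in each genotype, too few to set against those shares. Csta1, at the other end of the stefin A cluster, read 1275 to 1391 in wild-type control and 1647 to 2187 in wild-type DNFB ears. It rose by 0.47 ± 0.15 in the wild type (adjusted p = 0.0289), and its change in the knockout, 0.28 ± 0.15, did not pass (adjusted p = 0.159). The difference between them was not called (adjusted p = 0.929).

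Cst7, which encodes the leukocyte cystatin F, an inhibitor of cathepsin C, rose by 0.65 ± 0.20 in wild-type and 0.94 ± 0.20 in knockout ears (adjusted p = 0.0289 and 0.00468). It read 24.2 to 31.3 in wild-type control and 36.6 to 46.1 in wild-type DNFB ears. Fetub, a liver-secreted member of the superfamily, rose in knockout ears (0.83 ± 0.26, adjusted p = 0.029) and did not pass in wild-type ears (0.47 ± 0.26, adjusted p = 0.184), and the difference between them was not called (adjusted p = 0.921). Its readings were low, 10.1 to 35.8, and the knockout change was 0.61 with values below 16 set to 16. Rarres1, a retinoid-responsive gene with a cystatin-like fold, fell by 1.91 and 2.20 on the log2 scale in wild-type and knockout ears (adjusted p = 4.43e-05 and 1.61e-05). The probe set shared by Cstdc4 and Csta2 in the cluster was not tested, as its highest value on any array was 19.6.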

How the data were processed

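Per the labels, whole-ear RNA (Trizol, RNeasy; 5 µg of total RNA, 10 µg of cRNA) was hybridized to 12 one-colour arrays. The deposited values are 1 linear intensity per probe set and array, made by the authors with GCRMA per the submitters' processing notes. Its version and background settings are not given in the sources used here. Array medians were 24.7 to 30.1. The deposited instrument records (unit: other) hold no expression values. Their hybridization times served to infer the 3 sets of arrays called washing runs. The number of arrays limits the precision.

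Here log2 was taken with no pseudocount. Of 45101 probe sets, 64 were controls, and 29460 reached 16 in at least 3 arrays. limma 3.58.1 (lmFit and eBayes, R 4.3.3) was fitted with 1 coefficient per group over all 12 arrays, with Benjamini-Hochberg adjustment over the probe sets tested and a threshold of 0.05. The fit was tested on simulated data. Each gene on a list was represented by the brightest of its tested probe sets that carry its symbol alone. Probe sets were named from the platform annotation, and sequences come from RefSeq (GRCm38.p6). Both ears of each mouse make a pair, per the labels, though no paired test is stated there. Within mice, deviations from the group means correlated at -0.00426 to 0.0797. The labels describe separate animals within each group, so p-values rest on the spread between ears of different mice, pooled over all groups. That spread also holds differences between arrays and washing runs, and the main fit takes both ears of a mouse as independent.

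Every member probe set was named, together with each tested cysteine cathepsin, other related genes past the threshold, up to 4 markers per list by mean intensity and the 3 genes most like each member. The members and lists were chosen with earlier results of these data known. Alternatives were no filter or a filter at 64, log2(value + 16), quantile normalization, centring on the array median, trended and robust moderation, mouse or washing run as a block, each array left out, and only the arrays of the groups compared.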

Additional observations from a re-analysis of the deposited data

How the results depend on the processing

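The count of probe sets past the threshold was 6 of 7 in each response and 0 in the 3 other comparisons. It was 5 to 7 in the wild-type and 5 to 6 in the knockout response under all alternatives, 6 to 7 and 6 with any array left out, and 0 throughout elsewhere. With the mouse as a replicate block it stayed at 6, 6 and 0, and the pairing changed no call. The wild-type Cst6 change passed in 4 settings (0.29 in 3 of them, 0.43 with centring). With the washing run as a block, Cst3 in wild-type ears (-0.45) and Cstb 1422506_a_at in knockout ears (0.37) lost their calls, and the cause was not tested. The cathepsin counts stayed at 10 and 10 with the probe set of median change.

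Signs turned only among differences that passed in no setting. Those of Stfa2l1 that draw on its control ears, all below 16, describe no level. With the run block, every value but the wild-type response and the control-ear differences draws on knockout control ear 3. With the run block the knockout Cst6 change was 0.037. The genotype difference in DNFB ears was then -2.45 (Stfa1/Cstdc5), -2.31 (Stfa2l1), -0.16 (Cstb 1422507_at) and 0.026 (Cst6). In control ears it was -0.87, -1.50 and -0.093 for Stfa1/Cstdc5, Stfa2l1 and Stfa3, -0.050 for Cstb 1422506_a_at and 0.083 for Cst3, and the difference of responses was -1.58 (Stfa1/Cstdc5), -0.81 (Stfa2l1) and -0.15 (Cst3). Centring on the median gave 0.036 for the knockout Cst6 change, 0.021 and 0.040 for the DNFB-ear genotype differences of Stfa3 and Cst3, 0.10 for that of Cst3 in control ears, and -0.037 and -0.060 for the differences of responses of Stfa1/Cstdc5 and Cst3. Quantile normalization gave 0.015 for Stfa3 in DNFB ears, 0.0080 for Cst3 in control ears, and -0.022 and -0.0086 for the differences of responses of Stfa1/Cstdc5 and Cst3, and log2(value + 16) gave -0.039 for that of Stfa1/Cstdc5.

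With single arrays left out, the control-ear genotype difference ranged from -0.77 to 0.67 for Stfa1/Cstdc5, -0.69 to 0.59 for Stfa2l1 and -0.0715 to 0.047 for Cst3. That in DNFB ears ranged from -0.16 to 0.40 for Stfa2l1, -0.18 to 0.17 for Stfa3, -0.059 to 0.039 for Cst3, -0.15 to 0.0026 for Cst6 and -0.025 to 0.043 for Cstb 1422507_at. The difference of responses ranged from -0.57 to 0.88 for Stfa1/Cstdc5, -0.49 to 0.79 for Stfa2l1 and -0.055 to 0.064 for Cst3. The knockout Cst6 change ranged from -0.11 to 0.051. The Stfa2l1 ranges in control ears and for the difference of responses draw on readings all below 16 and describe no level.

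Over all probe sets, centring turned 4485 higher and 6726 lower wild-type calls (40.0% higher) into 5717 and 4507 (55.9%), and moved the median change from -0.14 to 0.005. The run block gave 5624 wild-type and 5791 knockout calls, against 11211 and 11501. The 35 genotype calls in DNFB ears ranged from 3 to 92 and the 44 in control ears from 4 (run block) to 206 (without knockout control ear 1), and the single call of the difference of responses from 0 to 4. With 3 ears per group, stefin A genotype differences smaller than the distance from an estimate to the end of its interval would not pass even unadjusted. The intervals rest on a shared spread that includes knockout control ear 3. Without that ear, the SE of the wild-type Stfa1/Cstdc5 response fell from 0.56 to 0.21. Stfa2l1 control ears also lay below 16, and most Stfa3 ones near it.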
